A study of Mus musculus with 13 samples.

Results

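The 33 genes described here work in homologous recombination and in the Fanconi pathway, and they were taken by symbol from a deposited table of 43629 mouse genes. All 33 were in the table, and all 33 were among the 15872 genes tested, which had reached 10 normalized counts in 3 or more of the 13 libraries. Polyadenylated RNA was sequenced from 5 thymic lymphomas of Atm-/- mice (129S6/SvEv), from 5 thymic lymphomas of Rag2c/c p53-/- mice (mixed C57BL/6 and 129S6/SvEv background) and from 3 WT thymuses (C57BL/6). Atm-/- mice lack the kinase that signals DNA double-strand breaks. Rag2c/c p53-/- mice lack p53 and carry a truncated RAG2, the core protein without its C-terminal part. RNA of the lymphomas came from cell suspensions of the whole tumor thymus, so each library averages tumor cells and the other cells of the organ, and fewer cells of a type cannot be told apart from less RNA per cell. The WT libraries were re-used from another series. Strain and series therefore go with the groups and cannot be told apart from genotype, and the labels give no age, sex or litter. Each library was taken as a separate animal or tumor; where that does not hold, p-values measure only technical spread.

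Homologous recombination repairs double-strand breaks and broken replication forks by copying the sister chromatid. The ends are first cut back to single strands, BRCA1, PALB2, BRCA2 and the paralog complexes prepare them for strand exchange, which RAD54 drives, and helicases and nucleases then separate the joined molecules. In the Fanconi pathway a core complex attaches ubiquitin to FANCD2 and FANCI where a crosslink blocks a fork, and the cut made there is repaired by recombination. In the thymus these genes are used by dividing thymocytes. Breaks made by RAG at antigen receptor genes are joined mainly by another route, end joining.

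RefSeq promoter windows (GRCm38.p6) were given for 26 of the 33 genes, each with 250 bases before and 50 after the start of transcription. The 6 promoters below belong to genes that rose in at least 1 lymphoma group and hold a match to one of 5 motif types searched on both strands. They were picked for both traits, so they do not show that a motif goes with a rise. The 150 bases before the start are printed on the strand of the gene, with matches in capitals.
Rad54l: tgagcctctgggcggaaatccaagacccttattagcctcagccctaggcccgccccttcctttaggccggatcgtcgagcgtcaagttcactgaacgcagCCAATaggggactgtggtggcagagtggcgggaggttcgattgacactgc
Fanca: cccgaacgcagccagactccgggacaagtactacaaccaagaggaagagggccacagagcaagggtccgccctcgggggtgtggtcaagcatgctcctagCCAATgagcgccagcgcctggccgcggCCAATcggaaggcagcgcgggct
Xrcc3: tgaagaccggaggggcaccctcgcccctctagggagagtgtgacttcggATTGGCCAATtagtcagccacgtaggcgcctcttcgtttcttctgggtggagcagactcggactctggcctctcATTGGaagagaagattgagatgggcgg
Rad51c: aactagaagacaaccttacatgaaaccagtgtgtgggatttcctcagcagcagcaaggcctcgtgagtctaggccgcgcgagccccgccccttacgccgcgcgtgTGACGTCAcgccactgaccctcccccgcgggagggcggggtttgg
Fancg: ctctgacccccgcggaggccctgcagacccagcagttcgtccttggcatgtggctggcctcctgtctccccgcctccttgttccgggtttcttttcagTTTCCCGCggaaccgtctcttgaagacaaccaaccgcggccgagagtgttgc
Dna2: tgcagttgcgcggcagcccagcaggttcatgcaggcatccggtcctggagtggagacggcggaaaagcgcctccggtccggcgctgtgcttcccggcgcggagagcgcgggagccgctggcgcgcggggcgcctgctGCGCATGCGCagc
Rad54l lies at chr4:116123691-116123840 on the minus strand, and its capitals mark CCAAT, the box bound by NF-Y, 50 bases before the start. Fanca, at chr8:123318577-123318726 on the minus strand, also has CCAAT 50 bases before the start and has another 23 bases before it. Xrcc3, at chr12:111813880-111814029 on the minus strand, has CCAAT in either orientation 101, 96 and 27 bases before the start, the first and second of them side by side. Rad51c, at chr11:87404507-87404656 on the minus strand, has the CRE motif TGACGTCA, bound by CREB and ATF factors, 45 bases before the start. Fancg, at chr4:43010302-43010451 on the minus strand, has TTTCCCGC, of the E2F type, 52 bases before the start. Dna2, at chr10:62946879-62947028 on the plus strand, has GCGCATGCGC, the core of the NRF1 motif, 13 bases before the start.

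Over the whole windows, CCAAT was found in 15 of the 26 promoters (57.7%) and in 38.3% of the 10514 promoters of tested genes. Of these genes, Palb2, Xrcc3, Rad54l and Fanca rose in at least 1 lymphoma group, and Fancc and Slx4 fell in Atm-/- lymphomas. The others, Brca1, Brip1, Rad51b, Fancb, Fance, Fancf, Fancm, Blm and Rmi1, passed in neither group. E2F-type letters (TTTCCCGC, TTTGGCGC, TTTCGCGC or TTTGCCGC) were found in 4 of 26 (15.4%), those of Bard1, Brca2, Rad51c and Fancg, and in 4.03% of the promoters of tested genes. The CRE was found in Brca2 and Rad51c (7.7%, against 3.2%), the CHR motif TTTGAA of cell cycle genes in Bard1 and Eme1 (7.7%, against 12%) and the NRF1 core in Dna2 alone (3.8%, against 2.03%). None of these shares was tested. A match is a description of letters and not a bound site.

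The libraries had been scaled to nearly equal totals, from 19788898 to 21591289 normalized counts. The worth of 1 read could be read from skipped low values in 6 libraries, which gave 6.354 to 13.728 M reads, with Rag2c/c p53-/- replicate 2 (6.354 M), WT replicate 2 (6.668 M) and Atm-/- replicate 2 (9.224 M) the shallowest of these. In the other 7 libraries the step was not resolved, so no counting interval is given. Atm itself ran from 1559 to 2274 normalized counts in WT thymus, from 208 to 732 in Atm-/- lymphomas and from 439 to 1315 in Rag2c/c p53-/- lymphomas. Trp53, which encodes p53, was not absent from Rag2c/c p53-/- lymphomas (2018 to 5461, against 4387 to 6341 in WT), and reads of exons that remain on a deleted allele would be counted. Rag2 (46 to 1025 in Atm-/-, 260 to 790 in Rag2c/c p53-/-) and Rag1 were lower in both lymphoma groups than in WT thymus (4199 to 5409 for Rag2), so the Rag2 level does not check the truncation. T cell markers were present in every library (summed level of 6 genes 58756 to 87635 in WT, 45832 to 89527 in Atm-/- and 46343 to 95741 in Rag2c/c p53-/-).

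Per kilobase of exon, Mus81 was the most abundant member in WT thymus (397.63 normalized counts per kilobase, above 76.9% of tested genes) and Rad51b the least (14.2, above 22%). Brca1 (120.04), Fancd2 (98.4), Exo1 (97.88) and Rad54l (94.43) lay near the middle of the tested genes. Members had a smaller median spread than tested genes, which was not tested, and the tested genes were not matched to them by level. The median SD on the log2 scale was 0.36 for members and 0.44 for all tested genes in Atm-/- lymphomas, and 0.32 against 0.49 in Rag2c/c p53-/- lymphomas, while in WT thymus it was 0.13 against 0.16.

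Against WT thymus, 11 of the 33 genes passed the test in Atm-/- lymphomas, of which 7 rose (21.2%) and 4 fell (12.1%). Passing means a Benjamini-Hochberg adjusted p under 0.05 over all 15872 genes, in limma fitted to log2(value + 1) of the 13 libraries. Of all tested genes 21.0% rose and 23.6% fell, so the share of members that rose was that of the background and the share that fell was lower. Only Eme1 also reached a log2 fold change of 1 and a mean of 10, the cutoffs of the study, which 29.5% of all genes did. In 9 members the Atm-/- and WT libraries did not overlap, 5 higher (15.2%, against 23.4% of all genes) and 4 lower (12.1%, against 27.9%). The direction was the more uneven measure, with 25 of 33 members higher (75.8%) where 49.4% of all genes were. The median log2 fold change was 0.27 for the members and -0.02 for all genes.

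In Rag2c/c p53-/- lymphomas 11 members passed as well, but 10 rose (30.3%) and only Mus81 fell (3.0%). Of all genes 17.5% rose and 19.7% fell. The cutoffs of the study were met by 5 members (15.2%), all higher, namely Eme1, Xrcc3, Rad54l, Rad51c and Rad54b, and by 23.6% of all genes in either direction. The libraries did not overlap in 13 higher members (39.4%, against 19.7% of all genes) and in 3 lower ones (9.1%, against 24.2%). Again 25 members were higher, where 49.3% of all genes were, and the medians were 0.42 for members and -0.02 for all genes. Both comparisons use the same 3 WT thymuses, so they are not independent of each other. Rad54l, Fanca, Exo1, Dna2 and Eme1 rose in both groups and Mus81 fell in both. In Atm-/- lymphomas alone Palb2 and Fancl rose and Fancc, Fanci and Slx4 fell. In Rag2c/c p53-/- lymphomas alone Rad51c, Xrcc2, Xrcc3, Rad54b and Fancg rose, and the remaining 17 members passed in neither. Passing in 1 group alone does not show a difference between the groups, which is tested further on.

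**Figure D1:**
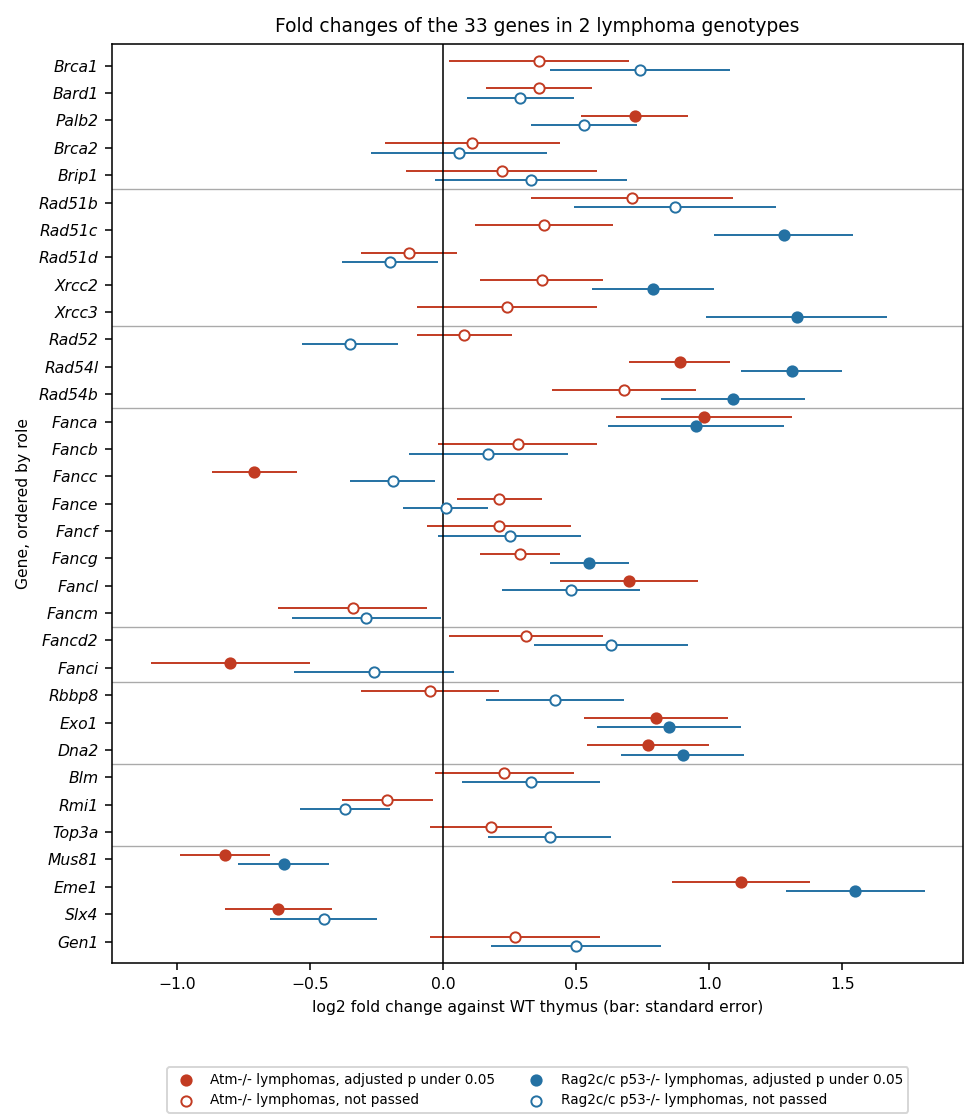
Log2 fold changes of the 33 genes against WT thymus (x axis; bars are standard errors from limma), by role from BRCA1 at the top to the nucleases at the bottom, for Atm-/- (red) and Rag2c/c p53-/- (blue) lymphomas. Filled points passed an adjusted p of 0.05; Eme1 lies farthest to the right in both groups (1.12 and 1.55) and Mus81 to the left (-0.82 and -0.60), while Rad51c and Xrcc3 are filled in blue alone.

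Exo1 encodes the exonuclease and Dna2 the nuclease-helicase that extend resection of a broken end. Exo1 was at 865, 741 and 867 normalized counts in WT thymus, at 1707, 870, 1543, 1512 and 1722 in Atm-/- lymphomas and at 1185, 959, 1548, 2124 and 1890 in Rag2c/c p53-/- lymphomas. All 10 lymphomas lay above the 3 thymuses, Atm-/- replicate 2 (870) by the least. The fold changes were 1.74 (log2 0.80 ± 0.27 SE, adjusted p = 0.029) and 1.8 (log2 0.85 ± 0.27, adjusted p = 0.026). Dna2 rose 1.71-fold in Atm-/- (adjusted p = 0.016) and 1.86-fold in Rag2c/c p53-/- lymphomas (adjusted p = 0.0087), from 848 to 1033 in WT to 941 to 2081 and 1294 to 2039. The lowest Atm-/- value of Dna2, 941, was that of replicate 2 and lay within the WT range. Rbbp8, which encodes CtIP, the factor that starts resection, passed in neither group (log2 -0.05 ± 0.26 and 0.42 ± 0.26).

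Of BRCA1, BRCA2 and their partners, only Palb2, the bridge between BRCA1 and BRCA2, passed. It was at 337, 286 and 371 in WT thymus, at 558, 390, 568, 649 and 588 in Atm-/- and at 447, 392, 510, 481 and 577 in Rag2c/c p53-/- lymphomas. The groups did not overlap in either comparison. The rise was 1.65-fold in Atm-/- (log2 0.72 ± 0.20, adjusted p = 0.011), and the value in Rag2c/c p53-/- lymphomas was 1.45-fold (log2 0.53 ± 0.20, adjusted p = 0.050, not passed before rounding). Brca1, a ubiquitin ligase that favours resection, ran from 858 to 1150 in WT, from 555 to 1943 in Atm-/- and from 1202 to 2322 in Rag2c/c p53-/- lymphomas. All Rag2c/c p53-/- lymphomas lay above WT, yet the test was not passed (log2 0.74 ± 0.34, adjusted p = 0.11). In Atm-/- lymphomas replicate 2 (555) was the only one below WT, and the others were at 1363 to 1943. Bard1, the partner of BRCA1 in its ligase, was within log2 0.29 to 0.36 of WT in both groups, Brip1, a helicase bound to BRCA1, within 0.22 to 0.33 and Brca2 within 0.06 to 0.11, and none of them passed.

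The paralogs Rad51b, Rad51c, Rad51d, Xrcc2 and Xrcc3 form small complexes that support strand exchange. None of the 5 passed in Atm-/- lymphomas (log2 -0.13 to 0.71), where 44.6% of all genes did. In Rag2c/c p53-/- lymphomas 3 rose, as did 17.5% of all genes. Rad51c, a subunit of both paralog complexes, was at 247, 247 and 243 in WT thymus, at 234, 400, 411, 265 and 327 in Atm-/- and at 693, 898, 434, 571 and 492 in Rag2c/c p53-/- lymphomas. Every Rag2c/c p53-/- lymphoma lay above every other library. The rise over WT was 2.42-fold (log2 1.28 ± 0.26, adjusted p = 0.0021), and the 1.30-fold value in Atm-/- lymphomas did not pass (adjusted p = 0.25).

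Xrcc3, which pairs with RAD51C, was at 411, 396 and 389 in WT thymus, at 474, 375, 440, 540 and 543 in Atm-/- and at 649, 892, 1629, 1893 and 561 in Rag2c/c p53-/- lymphomas. Again all 5 Rag2c/c p53-/- values were the highest, with replicates 3 and 4 far above the rest, and the SD of 0.78 on the log2 scale was the largest of any member in that group. The rise was 2.51-fold (log2 1.33 ± 0.34, adjusted p = 0.0090). The 20 tested genes nearest to Xrcc3 on chromosome 12, a stretch of 1142 kb, had a median log2 difference from WT of 1.41 in Rag2c/c p53-/- replicate 4, where Xrcc3 itself was 2.24 above WT. In replicate 3, where Xrcc3 was 2.03 above WT, the same neighbours had a median of 0.07, and in replicate 2, with Xrcc3 at 1.16, they were at -0.34. In Atm-/- replicates 1, 3 and 4 these neighbours were at -0.85, -0.94 and -0.87, while Xrcc3 was at 0.25, 0.14 and 0.44. The neighbours of Rad51c had a median of -0.43 in Atm-/- lymphomas and of -0.19 in the Rag2c/c p53-/- group. Whether copy number had a part in these values was not tested.

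Xrcc2, in the other paralog complex, rose 1.72-fold in Rag2c/c p53-/- lymphomas (adjusted p = 0.016), from 185 to 275 in WT to 321 to 465, without overlap. Rad51b had the lowest level of the 33 genes (39 to 61 in WT) and values of log2 0.71 ± 0.38 and 0.87 ± 0.38 that did not pass. Rad51d was the paralog nearest to WT (log2 -0.13 and -0.20, not passed).

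Rad54l encodes RAD54, the motor of strand exchange. Its values were 733, 656 and 794 in WT thymus, 1345, 948, 1390, 1478 and 1657 in Atm-/- and 2309, 1412, 1688, 1802 and 1933 in Rag2c/c p53-/- lymphomas. All lymphomas were above all thymuses, with Atm-/- replicate 2 the nearest. The rise was 1.85-fold in Atm-/- (log2 0.89 ± 0.19, adjusted p = 0.0025) and 2.49-fold in Rag2c/c p53-/- lymphomas (log2 1.31 ± 0.19, adjusted p = 0.00026). The exons of Rad54l share 15.4% of their length with Lrrc41 on the opposite strand, and whether strand was used in counting is not given in the sources used here. Rad54b, its relative, was at 382, 305 and 409 in WT, at 591, 327, 617, 703 and 799 in Atm-/- and at 802, 564, 725, 883 and 963 in Rag2c/c p53-/- lymphomas. It rose 2.13-fold in the latter (log2 1.09 ± 0.27, adjusted p = 0.0064), and in Atm-/- the 1.6-fold value missed the threshold (adjusted p = 0.052), with replicate 2 (327) inside the WT range. Fsbp, on the same strand, shares 35.8% of the Rad54b exon length, and its highest group mean was 55. Rad52, a mediator whose role is larger in yeast than in mammals, passed in neither (log2 0.08 and -0.35).

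**Figure D2:**
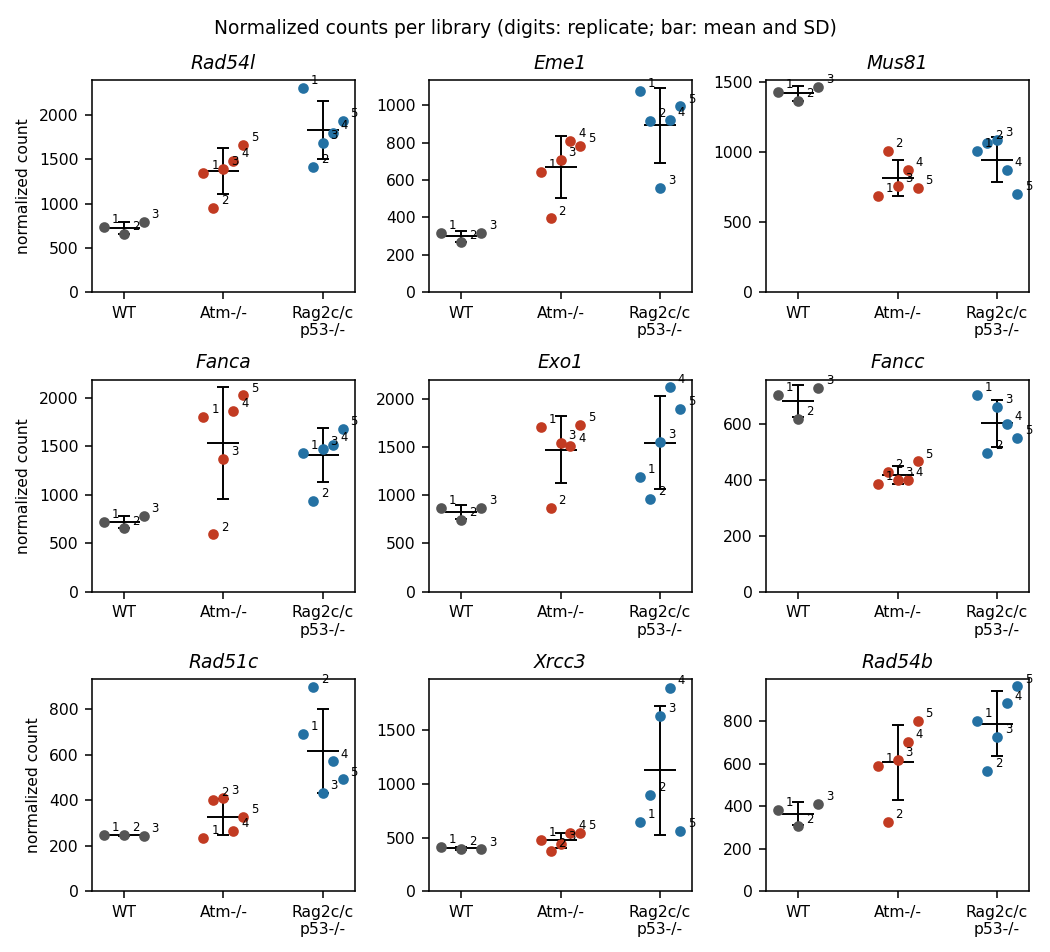
Normalized counts of 9 genes (y axes from 0) in each library, by group, with the replicate number beside each point and the mean and SD as bars. Rad54l and Eme1 lie above WT in all 10 lymphomas and Mus81 below, Fancc is low in Atm-/- alone, and Rad51c and Xrcc3 are high in Rag2c/c p53-/- alone.

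In the Fanconi core complex and its translocase FANCM, 2 of 8 members rose and 1 fell in Atm-/- lymphomas, and 2 rose in Rag2c/c p53-/- lymphomas. Of all genes 21.0% rose and 23.6% fell in the first comparison, and 17.5% rose in the second. Fanca, a scaffold subunit, was at 717, 653 and 779 in WT, at 1802, 591, 1373, 1869 and 2026 in Atm-/- and at 1436, 939, 1471, 1516 and 1679 in Rag2c/c p53-/- lymphomas. It rose 1.97-fold (log2 0.98 ± 0.33, adjusted p = 0.030) and 1.93-fold (log2 0.95 ± 0.33, adjusted p = 0.039). Atm-/- replicate 2, at 591, lay below all 3 thymuses, so the groups overlapped there.

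Fancl, the ubiquitin ligase of the complex, rose 1.62-fold in Atm-/- lymphomas (416 to 534, against 231 to 353 in WT, adjusted p = 0.043) and was at 307 to 643 in Rag2c/c p53-/- lymphomas (adjusted p = 0.16). Fancg, which binds FANCA, rose 1.47-fold in Rag2c/c p53-/- lymphomas (1170 to 1579, against 854 to 944, adjusted p = 0.0099). Fancc was the member that fell. It was at 702, 617 and 727 in WT, at 386, 429, 399, 399 and 466 in Atm-/- and at 702, 496, 660, 599 and 551 in Rag2c/c p53-/- lymphomas, so that every Atm-/- value was below every other library. The fold was 0.61 in Atm-/- (log2 -0.71 ± 0.16, adjusted p = 0.0031) and 0.88 in Rag2c/c p53-/- lymphomas (adjusted p = 0.38). Fancb, Fance and Fancf, the other subunits, were at log2 values of 0.01 to 0.28, and Fancm was at -0.34 and -0.29, none of them passed.

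FANCD2 and FANCI are the partners on which the core complex acts. Fancd2 was at 779, 754 and 810 in WT, at 1351, 473, 926, 1102 and 1319 in Atm-/- and at 1322, 1142, 1164, 944 and 1551 in Rag2c/c p53-/- lymphomas. It passed in neither group (log2 0.31 ± 0.29 and 0.63 ± 0.29, the second without overlap and with adjusted p = 0.10). Fanci was at 1134, 1053 and 1111 in WT, at 792, 281, 704, 656 and 986 in Atm-/- and at 970, 800, 974, 881 and 982 in Rag2c/c p53-/- lymphomas. All 10 lymphomas were below WT, and the fall passed in Atm-/- (fold 0.58, log2 -0.80 ± 0.30, adjusted p = 0.045) but not in Rag2c/c p53-/- lymphomas (fold 0.84, adjusted p = 0.52). Polg on the opposite strand overlaps 16% of the Fanci exon length and had a group mean of up to 4591.

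Among the genes that dissolve joined molecules, the helicase Blm (log2 0.23 and 0.33), its partner Rmi1 (-0.21 and -0.37) and the topoisomerase Top3a (0.18 and 0.40) did not pass. The nucleases that cut joined molecules moved apart. Eme1, the regulatory partner of MUS81, was at 315, 266 and 315 in WT, at 646, 395, 707, 812 and 785 in Atm-/- and at 1078, 919, 556, 921 and 995 in Rag2c/c p53-/- lymphomas. All lymphomas were above all thymuses, and the rise was the largest of the 33 genes in each comparison, 2.18-fold (log2 1.12 ± 0.26, adjusted p = 0.0035) and 2.92-fold (log2 1.55 ± 0.26, adjusted p = 0.00058). Mus81, the catalytic subunit, was at 1430, 1361 and 1464 in WT, at 683, 1005, 755, 869 and 743 in Atm-/- and at 1004, 1064, 1083, 871 and 702 in Rag2c/c p53-/- lymphomas. All lymphomas were below all thymuses, and the fold was 0.57 (log2 -0.82 ± 0.17, adjusted p = 0.0021) and 0.66 (log2 -0.60 ± 0.17, adjusted p = 0.016). Lrrc59 and Mrpl27 overlap 10.7% of the Eme1 exon length and Efemp2 4.9% of that of Mus81, each on the opposite strand. Slx4, the scaffold that holds several nucleases, fell in Atm-/- lymphomas (1030 to 1754, against 2097 to 2294, fold 0.65, adjusted p = 0.021) and had a fold of 0.73 in Rag2c/c p53-/- lymphomas (adjusted p = 0.086). Gen1, a resolvase, was at log2 0.27 and 0.50 and did not pass.

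Since partners of a complex had moved in opposite directions, the log2 ratio of their values was taken in each library for 7 known pairs chosen after the values had been seen, so the ratios are a description with no test. Eme1 over Mus81 was at -2.18, -2.35 and -2.21 in WT thymus, at -0.08, -1.35, -0.09, -0.10 and 0.08 in Atm-/- and at 0.10, -0.21, -0.96, 0.08 and 0.50 in Rag2c/c p53-/- lymphomas. Turned back from the log2 scale, the mean log2 ratios were 0.21 (WT), 0.81 (Atm-/-) and 0.93 (Rag2c/c p53-/-), and the ratio was higher than in WT in 10 of 10 lymphomas. Fancd2 over Fanci was at -0.49 ± 0.04 (SD, n = 3) in WT, 0.62 ± 0.19 (SD, n = 5) in Atm-/- and 0.39 ± 0.22 (SD, n = 5) in Rag2c/c p53-/- lymphomas, again with no lymphoma in the WT range. This ratio was as high in Atm-/- replicate 2 (0.75), where both genes were at their lowest, as in replicates 1 and 4 (0.77 and 0.75). Rad51d over Xrcc2 was at 1.97 ± 0.28 (SD, n = 3) in WT and at 0.99 ± 0.27 (SD, n = 5) in Rag2c/c p53-/- lymphomas, lower in 5 of 5. In Atm-/- it was at 1.47 ± 0.46 (SD, n = 5) and overlapped with WT. Blm over Rmi1 was at 0.86 to 1.03 in WT, 0.27 to 1.86 in Atm-/- and 1.17 to 2.18 in Rag2c/c p53-/- lymphomas. For the other 3 pairs, Brca1 over Bard1, Brca2 over Palb2 and Rad51c over Xrcc3, both lymphoma groups overlapped with WT.

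**Figure D3:**
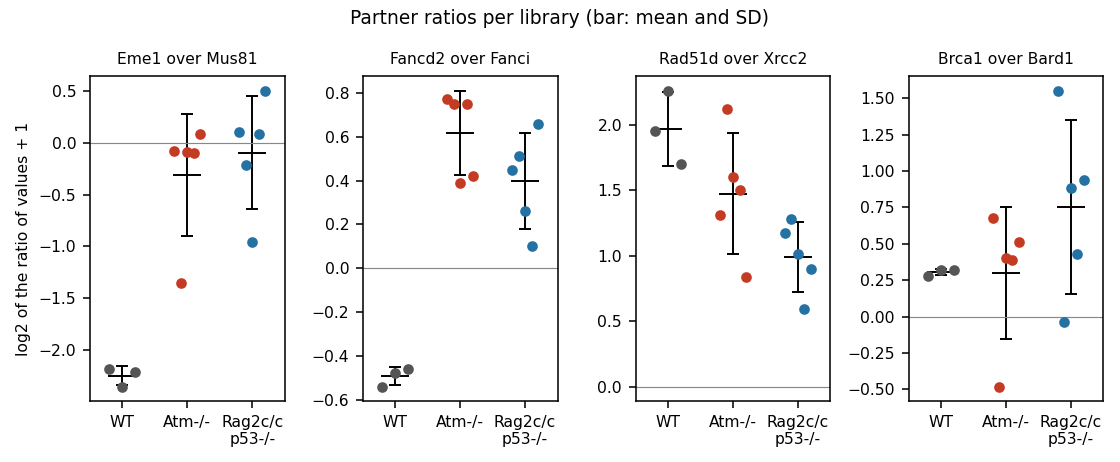
Log2 ratio of the values of 2 partner genes (y axis, value + 1; each panel has its own range) in each library, with the mean and SD as bars. Eme1 over Mus81 and Fancd2 over Fanci are higher in all 10 lymphomas than in the 3 WT thymuses, whereas Brca1 over Bard1 overlaps between all groups.

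The difference between the lymphoma genotypes was tested directly. Of the 33 genes 3 passed, all lower in Atm-/- (9.1%), and none was higher; of all genes 5.13% passed higher and 6.48% lower. At an unadjusted p under 0.05 limma gave 5, 1 higher (Rad52, adjusted p = 0.097) and 4 lower, Rad54l being the fourth (adjusted p = 0.12), and exact permutation tests gave 6, 1 of them higher. The share of all genes at an unadjusted p under 0.05 is not given for any fit, so these counts have no background. In this fit 11.6% of all genes passed after adjustment, and the unadjusted share can only be larger. Rad51c was lower in Atm-/- by log2 -0.90 ± 0.23 (fold 0.54, adjusted p = 0.021), Xrcc3 by -1.09 ± 0.30 (fold 0.47, adjusted p = 0.032) and Fancc by -0.52 ± 0.14 (fold 0.70, adjusted p = 0.027). Xrcc3 alone met the cutoffs of the study (3.0%, against 7.84% of all genes). In these 3 genes the lymphoma groups did not overlap (9.1% lower, against 4.48% of all genes), and no member was apart in the higher direction (3.85% of all genes). The exact permutation test of each alone gave an unadjusted p = 0.00794, the smallest that 5 against 5 can give. The members' median was -0.16 and that of all genes 0.02. The neighbours of Xrcc3 differed in the same direction (median log2 -0.83), those of Rad51c by -0.38 and those of Fancc by 0.12. With the 2 lymphoma groups fitted without WT none of the 33 passed in limma, where 6.66% of all genes did, and 5 of the 33 had an unadjusted p under 0.05.

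**Figure D4:**
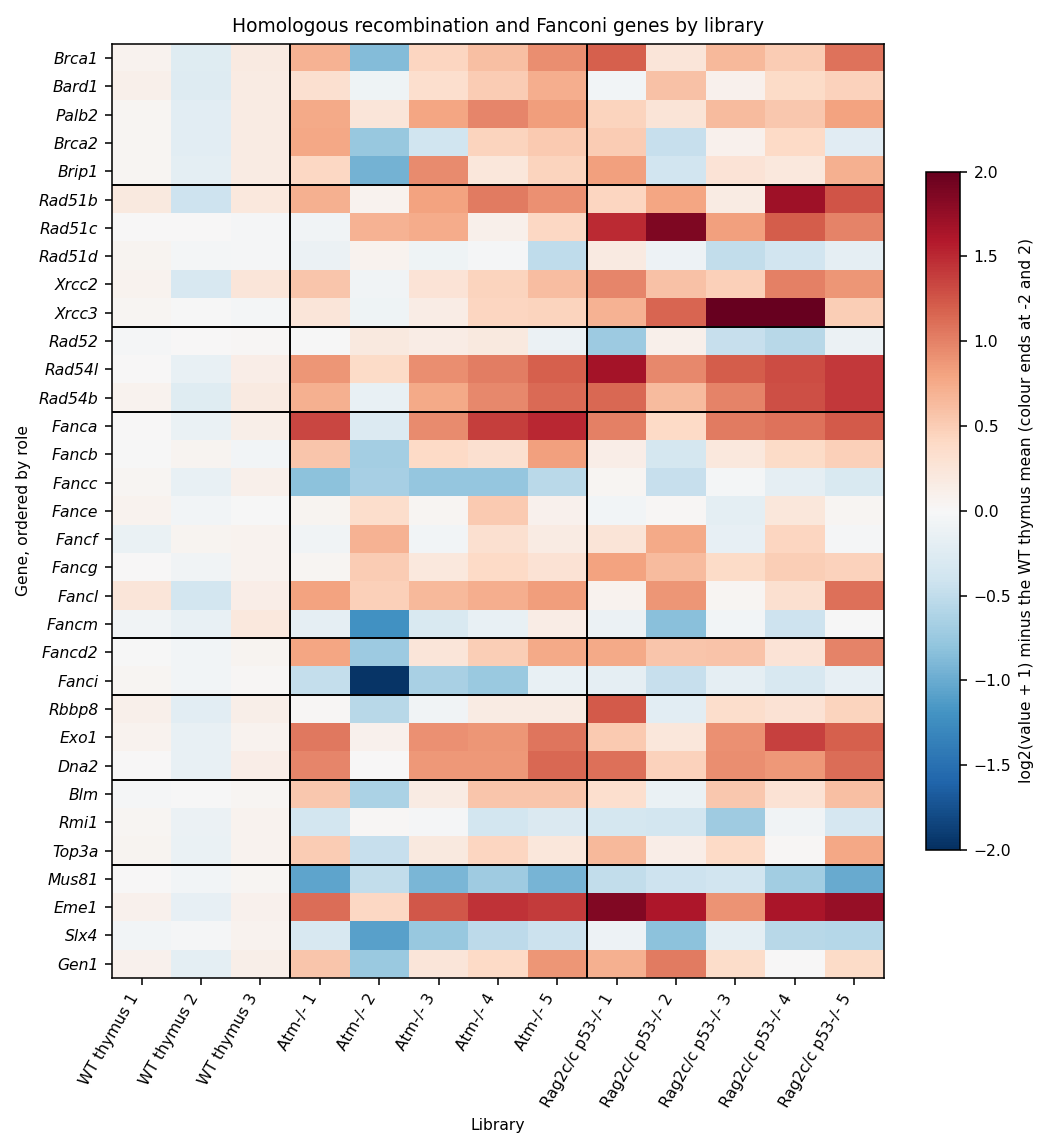
Log2(value + 1) of the 33 genes minus their mean in WT thymus (colour, which ends at -2 and 2), with genes by role in rows and the 13 libraries in columns. Red rows run through all 10 lymphomas for Rad54l and Eme1 and blue for Mus81; Atm-/- replicate 2 is the bluest of its group for Brca1, Fanci and Fancm.

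Atm-/- replicate 2 stood apart. Its members had a median log2 difference from WT of -0.09, against 0.25 to 0.52 in the other 4 Atm-/- lymphomas, and 14 of 33 were above the WT mean, against 23 to 26. Without it 14 members passed in Atm-/- lymphomas in place of 11, 3 met the cutoffs of the study in place of 1, and 23 did not overlap with WT in place of 9. At that setting 45.1% of all genes passed, 29.6% met the cutoffs and 60.3% did not overlap, against 44.6%, 29.5% and 51.3% with every library. Without WT replicate 2, 4 members passed (12.1%) and 34.6% of all genes did. Rag2c/c p53-/- replicate 2 was the lowest of its group (0.24, against 0.35 to 0.50). The sum of the dividing cell genes was also lowest in both replicates, but its genes did not all go that way. The summed level of Mki67, Top2a, Cdk1, Ccnb1, Aurkb and Birc5 was 30957 in Atm-/- replicate 2 and 50163 to 62346 in the other Atm-/- lymphomas, against 34639 to 40460 in WT, and 38384 in Rag2c/c p53-/- replicate 2 and 45028 to 50690 in the others. In Rag2c/c p53-/- replicate 2, Mki67 (8585), Top2a (14381) and Ccnb1 (1942) were the lowest of the group, and Cdk1 (3222) and Birc5 (6319) the highest. The summed level of 8 S phase genes was 30416 in Atm-/- replicate 2, the lowest of its group. It was 46464 in Rag2c/c p53-/- replicate 2, within the 34952 to 48906 of the others.

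The difference from WT also went with exon length. The 33 genes are long, with a median exon length of 5782 bases against 3823 for tested genes, and 20 of them fell in the longest of 3 equal classes. In that class the median log2 difference from WT over all genes was -0.55 in Atm-/- replicate 2 and -0.64 in Rag2c/c p53-/- replicate 2, and -0.15 to -0.38 in the other lymphomas. In the shortest class it was 0.61 and 0.66 in these libraries. In Atm-/- lymphomas 13.2% of the longest genes rose and 32.6% fell, and in Rag2c/c p53-/- lymphomas 11.5% and 27.9%. Of the 20 members in this class 5 rose and 3 fell in Atm-/- lymphomas, and 5 rose and none fell in the Rag2c/c p53-/- group, and their median log2 fold changes were 0.25 and 0.38, where the class as a whole was at -0.35 and -0.32.

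With the length trend taken out of each library, an alternative added after seeing the data, 14 members passed in Atm-/- lymphomas, 13 of them higher, and 17 passed in Rag2c/c p53-/- lymphomas, 16 of them higher. The background was then 22.1% higher and 21.9% lower, and 19.0% higher and 17.6% lower. The members' medians became 0.50 and 0.64. Brca1, Fancd2, Rbbp8 and Blm passed in both groups with this correction (Brca1 log2 0.73 and 1.08), and Fancc, Fanci, Slx4 and Fancl no longer passed in Atm-/-. Fancl moved from log2 0.70 to 0.63 (adjusted p = 0.058), Fanci from -0.80 to -0.60 (0.072), Fancc from -0.71 to -0.35 (0.074) and Slx4 from -0.62 to -0.29 (0.085). The correction also takes out any real difference that goes with length, and what caused the trend was not tested.

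**Figure D5:**
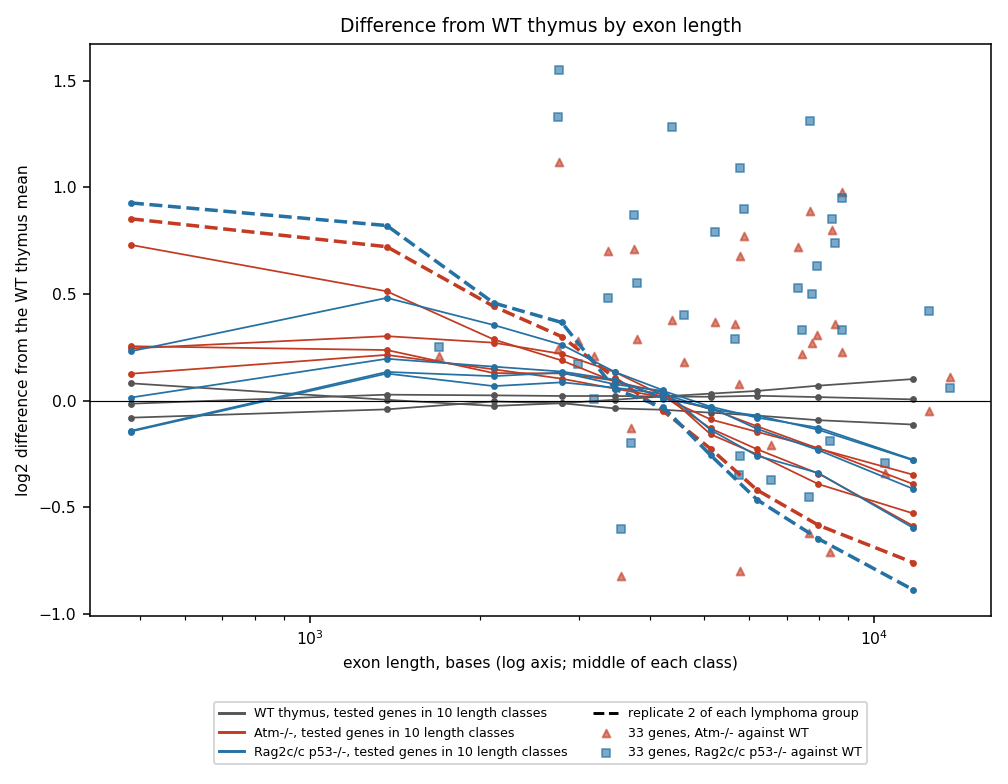
Median log2 difference from the WT mean of tested genes in 10 classes of exon length (x axis, log scale), 1 line per library, with replicate 2 of each lymphoma group dashed, and the 33 genes as triangles (Atm-/-) and squares (Rag2c/c p53-/-) at their log2 fold change. The lymphoma lines fall with length while most of the 33 genes lie above them.

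Cycling markers were higher in both lymphoma groups. Of 8 S phase genes 7 rose in Atm-/- lymphomas and 6 rose in the Rag2c/c p53-/- group, with medians of log2 0.81 and 0.76, and none fell. Among all tested genes 21.0% and 17.5% rose. The regulator E2f1 rose by log2 1.03 ± 0.16 (adjusted p = 0.00027) and 1.0 ± 0.16 (adjusted p = 0.00045), and the clamp gene Pcna did not pass (0.28 and 0.20). Of the 6 dividing cell genes 5 rose in Atm-/- lymphomas and 3 rose in the Rag2c/c p53-/- group, and Mki67 was at log2 0.02 and -0.15. The part of cycling in the members' values was not tested.

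Of 44 other genes of these pathways 41 were in the table and tested, and 11 rose and 4 fell in Atm-/- lymphomas, while 12 rose and 2 fell in those of Rag2c/c p53-/- mice. Of all tested genes 21.0% rose and 23.6% fell in the first comparison, and 17.5% and 19.7% in the second. The median log2 fold changes of the 41 genes were 0.26 and 0.41. The highest of those that passed were Mad2l2, of the shieldin and translesion synthesis complexes (log2 1.62 and 1.81, adjusted p = 7.4e-05 and 5.6e-05), and Cenps, a partner of FANCM (1.33 and 1.69). The lowest in Atm-/- were Dmc1, the meiotic recombinase, at 0 to 2 against 52 to 74 in WT, and Mcm9, a helicase of crosslink repair (log2 -0.99). In Rag2c/c p53-/- lymphomas they were Ercc4, a nuclease that works with SLX4 (-0.76), and Mcm9 (-0.62). Dmc1 ran from 2 to 111 there.

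Markers of other cells also moved with the groups. The summed level of 6 fibroblast genes was 204 to 218 in WT, 3783 to 18172 in Atm-/- and 642 to 2336 in Rag2c/c p53-/- lymphomas, with 5 and 4 of the genes higher among the calls. For 6 myeloid genes it was 3288 to 3634, 6145 to 10345 and 3610 to 7521, with 4 and 1 higher. For 6 B cell genes it was 1446 to 1770, 103 to 272 and 92 to 506, with 5 and 6 lower. For 6 thymic epithelium genes it was 725 to 1058, 189 to 609 and 287 to 1320, with 4 lower in each group. The defining gene Psmb11 was at 0 in all Atm-/- and at 0 to 1 in Rag2c/c p53-/- lymphomas, against 36 to 122 in WT. Epcam (22 to 875, against 221 to 283 in WT, log2 0.10) and Ccl25 (log2 0.06) did not pass in Rag2c/c p53-/- lymphomas. Of 4 erythroid genes tested 1 was higher in each group, and of 3 endothelial genes tested 0 and 2 were lower. The summed levels of the 2 lists were 880 to 6166 and 3134 to 6186 in Atm-/-, 795 to 4292 and 1820 to 5255 in Rag2c/c p53-/- lymphomas, and 936 to 2134 and 3607 to 3720 in WT. Nearly all of the endothelial sum was Pecam1 (3529 to 3660 in WT). Cdh5 (log2 -1.41 and -2.93) and Kdr (-2.06 and -2.55) passed in Rag2c/c p53-/- lymphomas alone. The part of these other cells in the members' values was not tested.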

How the data were processed

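The deposited table holds normalized counts per gene (scores, rounded to whole numbers) for 13 libraries made by the authors with bcl2fastq 1.8.3, STAR 2.4.0g1 on GRCm38, Picard and DESeq2 1.6.3, per the labels. The methods of the study add, for the WT thymuses, uniquely mapped reads, HTSeq-count and Ensembl annotation. The overall mean column differed by more than 1 from the mean of these 13 libraries in 16414 genes and was not used. The authors' fold changes and p-values, each lymphoma group against WT thymus, were not used. Values are rounded, so count models were not run.

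The 33 members were matched by symbol. They and all gene lists were chosen with earlier results of these data known. Groups were compared with limma 3.58.1 (R 4.3.3) on log2(value + 1), all 13 libraries in 3 groups, with trend and robust moderation. The filter kept 15872 genes, which reached 10 in 3 or more libraries. Fold changes are on the log2(value + 1) scale. The script was tested on simulated data. All members are named; of the other pathway genes, the 2 highest and 2 lowest that passed in each comparison with WT are named, and 1 gene of the rule is not reported here. Exon lengths came from GENCODE vM21 (99.3% of tested genes), and promoters from RefSeq. Replicate numbers of the lymphomas are in accession order and pair nothing. There were 25 alternative fits, 13 of them leaving out 1 library, besides exact permutation tests of single members. Depth limits are in the report.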

Additional observations from a re-analysis of the deposited data

Results flagged for a closer look

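Among the 33 genes and 2 lymphoma groups, 66 groups of 5 values in all, 5 had a highest or lowest library set off from the rest by more than Dixon's 95% critical value of 0.71, where chance gives about 1 in 20. In Atm-/- replicate 2, Brca1 was at 555 (the others at 1363 to 1943), Exo1 at 870 (1512 to 1722) and Dna2 at 941 (1705 to 2081). In Rag2c/c p53-/- replicate 2, Fanca was at 939 (1436 to 1679). In Rag2c/c p53-/- replicate 3, Eme1 was at 556 (919 to 1078). In each case the library was the lowest of its group.

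The effects of the lymphoma genotypes against WT thymus differed in limma's test of the difference itself for Rad51c (log2 -0.90, Atm-/- minus Rag2c/c p53-/-), Xrcc3 (-1.09) and Fancc (-0.52).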

How the results depend on the processing

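Of 2574 results for single members under an alternative, 2398 kept direction and side of the threshold, 93 lost and 75 gained the call. In the 25 refits with limma, Rad54l, Eme1 and Mus81 passed each time in Atm-/- lymphomas, and Rad51c, Xrcc3, Rad54l, Rad54b, Dna2 and Eme1 in Rag2c/c p53-/- lymphomas; no call between lymphoma groups did. In the exact permutation test of 1 member alone, Xrcc3 in Rag2c/c p53-/- against WT had p = 0.0536, and the other 8 had p = 0.0179, unadjusted. Rbbp8 in Atm-/- turned from log2 -0.05 to 0.49 with the length correction (adjusted p = 0.041 in limma).

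Counts for Atm-/- against WT, for Rag2c/c p53-/- against WT and for Atm-/- against Rag2c/c p53-/- follow in this order. Leaving out 1 library gave 4 to 14, 8 to 15 and 0 to 4 members passing, 1 to 3, 4 to 8 and 0 to 1 meeting the cutoffs of the study, 9 to 23, 16 to 21 and 3 to 6 without overlap, and medians of 0.20 to 0.45, 0.32 to 0.49 and -0.21 to -0.01. The shares of all genes moved at these settings as well. Of all genes 29.8% to 49.7%, 22.5% to 41.3% and 7.83% to 12.5% passed. Up to 31.2%, 25.1% and 8.32% met the cutoffs. Without overlap were 51.4% to 60.3%, 44.1% to 52.5% and 8.45% to 12.2% of all genes. The 0 calls between lymphomas arose without Atm-/- replicate 1 or 4, where 7.83% and 8.23% of all genes passed. At an unadjusted p under 0.05 were 6 and 5 members, a threshold for which no share of all genes is given. Library weights gave 21 and 21 passing (63.6% each, against 70.1% and 60.6% of all genes). At the cutoffs were then 2 (Atm-/- against WT, 6.1% against 37.1%) and 0 (between lymphomas, against 8.49%). With 2 groups in the fit, 0 passed and 0 met the cutoffs between lymphomas (6.66% and 5.24% of all genes did). There 5 members had an unadjusted limma p under 0.05, again without a share of all genes. With WT and Rag2c/c p53-/- replicate 2 left out, 7 passed in Atm-/- against WT (21.2%, against 40.6% of all genes). Between lymphomas 0 met the cutoffs (7.24% of all genes did) and 6 did not overlap (18.2%, against 12.3%). With replicate 2 of both lymphoma groups left out, 18 and 18 passed (54.5%, against 52.4% and 42.5% of all genes). The cutoffs were then met by 3, 8 and 0 members, and by 31.7%, 23.9% and 8.24% of all genes. Members without overlap were 23 (Atm-/- against WT, 69.7% against 60.7%) and 6 (between lymphomas, 18.2% against 16.4%). The length correction gave 17 passing in Rag2c/c p53-/- against WT (51.5%, against 36.6% of all genes) with a median of 0.64. It gave 4 and 9 at the cutoffs (12.1% and 27.3%, against 27.4% and 21.9%). In Atm-/- against WT 15 were without overlap (45.5%, against 51.1%). The cause of these changes was not tested. No paired analysis was run, because the groups are of different genotypes and so of different mice, and nothing pairs their libraries.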

Other observations

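The genes of this paragraph were picked after their values had been seen. Slx1b, the nuclease subunit held by SLX4, rose in Atm-/- lymphomas (512 to 744, against 421 to 432 in WT, log2 0.51, adjusted p = 0.030 in limma), where Slx4 fell, and was at 395 to 509 in Rag2c/c p53-/- lymphomas (log2 0.01, adjusted p = 0.97). With the length correction Slx4 no longer passed in Atm-/- lymphomas (log2 -0.29, adjusted p = 0.085 in limma), and no corrected value is given for Slx1b. Rpa2, a subunit of the protein that coats single-stranded DNA, rose in both lymphoma groups (log2 0.94 and 1.19), while its partners Rpa1 (0.23 and 0.39) and Rpa3 (0.26 and 0.46) did not pass. Nbn, the signalling subunit of the MRN complex that senses broken ends, rose in both (log2 0.80 and 1.05), while Mre11 (0.07 and -0.02) and Rad50 (0.23 and 0.41) did not pass. Differences in change between these partners were not tested. Recql5, a helicase of the RecQ family, was lower in Atm-/- than in Rag2c/c p53-/- lymphomas (851 to 1085 against 1100 to 2006, log2 -0.74, adjusted p = 0.010).

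Rbbp8 was at 2772 in Rag2c/c p53-/- replicate 1 and at 1020 to 1602 in the other 4. In that library it lay log2 1.23 above WT, and the 20 tested genes nearest to it on chromosome 18 had a median of 1.0. The part of copy number was not tested.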
